A study of Mus musculus with 6 samples.

Results

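Ramp2, Tie1, Tek, Aplnr and Ace, 5 receptors and surface proteins of the vessel lining, were taken by name and matched, ignoring case, to the gene symbols of a deposited expression table. All 5 were among its 10191 genes, and all 5 were among the 10004 genes tested, those with at least 1 CPM (a gene's reads relative to all reads of its library) in at least 3 libraries. The libraries came from RNA of lung tumours of mice, 3 in a group labelled SD and 3 in a group labelled Ctrl. Sleep deficiency is named in the series title, but no label says what SD stands for. SD is used here only as the name of the group, and a value after ± is a standard deviation over 3 libraries. SD animals were kept in SD cages, and Ctrl animals in home cages, from 14:00 to 10:00, or 20 hours of each day. This went on for 7 weeks after a virus injection that both groups had, under lights on from 8:00 to 20:00.

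The mice belong to a genetic lung tumour model shared by both groups. The genotype label of each library carries a different running number, while the design text gives a single genotype, so the 6 libraries were treated as 1 genotype. The labels call the libraries of a group biological replicates. Whether tumours of several mice were pooled, the virus and the hour of tissue collection are not stated in the labels. The tissue is whole tumour, so endothelial RNA is mixed with that of tumour, stromal and immune cells. The surfactant gene Sftpc, which marks type 2 alveolar cells, was present at 1144 to 1219 CPM in SD libraries and 3730 to 4226 CPM in Ctrl libraries. The endothelial cadherin gene Cdh5 was present at 43.0 to 43.3 CPM in SD libraries and 23.6 to 27.8 CPM in Ctrl libraries.

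Endothelial cells line every vessel and sense peptides and growth factors from blood and from neighbouring cells. RAMP2 is a small membrane protein that joins the receptor CALCRL and makes it a receptor for adrenomedullin, a peptide needed for vessel integrity. TEK, also called TIE2, is the receptor kinase for angiopoietins, and TIE1 is its partner kinase. APLNR is the receptor for the peptides apelin and ELABELA, and ACE is a peptidase on the luminal face of lung capillaries that makes angiotensin II and degrades bradykinin. In mouse lung, aerocytes, the capillary cells of the gas exchange surface, are known for Apln, and general capillary cells for Aplnr.

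The stretch of 250 bases before the transcription start is shown for the 3 of 5 members matched in the table of RefSeq promoter windows used, because Tie1 and Tek are partners that moved the same way and Ace moved less. Ramp2 and Aplnr are named only. Sequences are from RefSeq on GRCm38.p6, 5′ to 3′ on the strand of the gene, and capitals mark matches to the motifs searched on both strands. Tie1 lies at chr4:118489850-118490099 on the minus strand, Tek at chr4:94739039-94739288 on the plus strand and the Ace window at chr11:105967698-105967947 on the plus strand.
Tie1: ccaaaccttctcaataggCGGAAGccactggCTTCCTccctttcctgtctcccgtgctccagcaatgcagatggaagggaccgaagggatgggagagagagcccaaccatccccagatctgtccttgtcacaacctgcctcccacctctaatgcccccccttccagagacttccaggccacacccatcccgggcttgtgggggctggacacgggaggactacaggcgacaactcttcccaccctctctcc
Tek: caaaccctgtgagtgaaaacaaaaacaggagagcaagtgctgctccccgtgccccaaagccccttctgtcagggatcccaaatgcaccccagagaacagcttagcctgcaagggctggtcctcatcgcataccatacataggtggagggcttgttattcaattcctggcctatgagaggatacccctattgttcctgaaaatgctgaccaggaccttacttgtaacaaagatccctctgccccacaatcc
Ace: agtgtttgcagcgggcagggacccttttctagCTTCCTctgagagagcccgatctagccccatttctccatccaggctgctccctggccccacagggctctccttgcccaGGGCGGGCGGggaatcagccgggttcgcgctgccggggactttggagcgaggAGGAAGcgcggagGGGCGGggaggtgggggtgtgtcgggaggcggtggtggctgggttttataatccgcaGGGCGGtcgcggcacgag

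The motifs were the ETS cores AGGAAG and CGGAAG, the GATA motif AGATAA, the E-box CACGTG and the D-box TTATGNAA. The GC box GGGCGG and AGGTCA, only the core of a ROR element, were searched too. Of 32851 mouse promoter windows of this length, 29.5% held AGGAAG, 13.6% CGGAAG, 9.99% AGATAA, 6.02% CACGTG, 14.0% AGGTCA, 3.07% TTATGNAA and 32.7% GGGCGG. The Tie1 window held CGGAAG at 232 to 227 bases before the start and AGGAAG, on the opposite strand and so written CTTCCT, at 219 to 214 bases before it. The Ace window held AGGAAG at 218 to 213 bases (opposite strand) and 88 to 83 bases before the start, and 4 GC boxes, at 140 to 135, 136 to 131, 75 to 70 and 18 to 13 bases, of which the 2 farthest from the start overlap each other. In the Tek window none of these letters was found. A second RefSeq start within Ace, with its window at chr11:105974939-105975188, had AGGTCA at 50 to 45 bases before it. The GC content was 60.4% for Tie1, 51.2% for Tek and 67.2% for the Ace window shown, against a median of 52.4% over all windows. GENCODE's outermost start of Tie1, at 118490061, lies inside the window printed. A match is a run of letters in this window and says nothing of binding.

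The SD libraries held 6511192, 6968966 and 6691554 reads and the Ctrl libraries 7245473, 7417095 and 7021019 reads, as recovered from the steps of the CPM values. In total 5667 of the 10004 genes tested, or 56.6%, differed between SD and Ctrl at an adjusted p under 0.05 in limma on log2(CPM + 1), with 28.1% of all tested genes higher and 28.5% lower in SD, and the median log2 difference was -0.01. The order of the deposited table bears on 3 of the 5 genes. Tek is in the 60 rows above Aaas, where an alphabetical listing begins. All 60 of those rows had a mean in SD at least 2 times that in Ctrl, and they held every value that was not a whole number of reads, 124 values in 50 genes, 121 of them in SD and 3 in Ctrl. Ramp2, between Bmp5 and Bmp7, and Tie1, between Tgfbr3 and Tbx21, stood out of alphabetical order after those rows. Of 1005 genes out of order there, 978 (97.3%) had an SD mean at least 2 times the Ctrl mean, against 30 of the 9126 genes in order (0.329%). Aplnr and Ace are among the 9126 in order, with ratios under 2. How the rows came to be listed so was not tested.

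**Figure D1:**
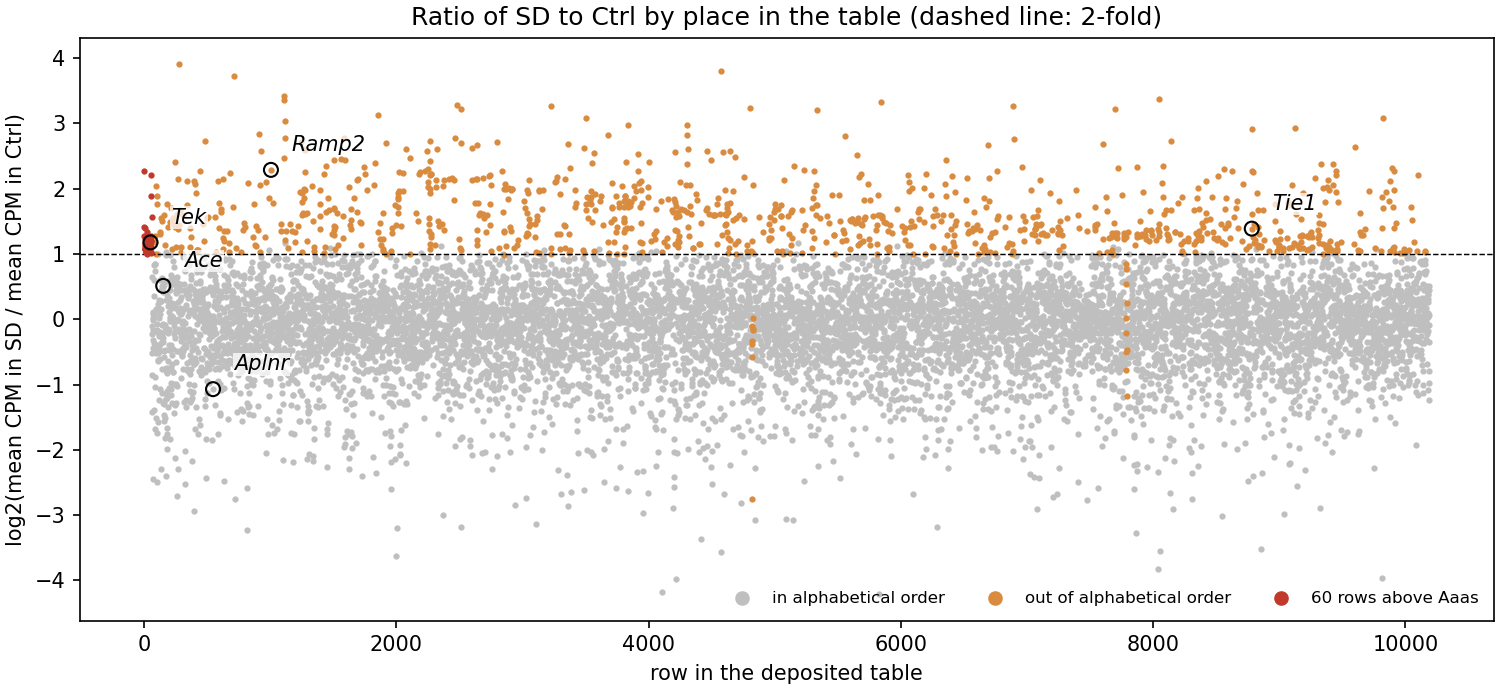
Log2 of the ratio of mean CPM in SD to mean CPM in Ctrl (vertical axis) for each gene by its row in the deposited table (horizontal axis). Red points are the 60 rows above Aaas, orange points genes out of alphabetical order and grey points genes in order, with the 5 genes circled; nearly all red and orange points lie above the dashed line at 2-fold.

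Of the 5 genes, 4 were higher in SD tumours and 1 was lower, all past the threshold, beside the 28.1% higher and 28.5% lower over all genes tested. Ramp2 was 4.89-fold, Tie1 2.62-fold, Tek 2.26-fold and Ace 1.43-fold higher, and Aplnr was 2.10-fold lower. In 5 of 5 the SD and Ctrl libraries did not overlap, which was so for 60.3% of all genes tested. The 5 log2 differences spanned 3.24 units, with a median of 1.17. In whole tumours fewer endothelial cells and less RNA per endothelial cell cannot be told apart, and the same holds for more. Other cell types moved with the groups. All 7 tested type 2 alveolar markers were lower in SD, with a summed 1359 to 1441 CPM in SD and 4937 to 5449 CPM in Ctrl libraries. Of 4 macrophage markers 3 were lower and 1, Csf1r, was higher (59.4 ± 1.14 CPM in SD, 42.0 ± 2.18 CPM in Ctrl). The 4 summed to 91.8 to 103 CPM in SD and 279 to 287 CPM in Ctrl. Of this, Atp6v0d2 alone had 34.9 ± 4.17 CPM in SD and 210 ± 7.57 CPM in Ctrl. All 8 ciliated cell markers were higher in SD, with 1378 to 1402 CPM in SD and 358 to 374 CPM in Ctrl. Of the remaining lists, 3 of 3 club cell markers, 6 of 9 type 1 alveolar markers and 3 of 9 fibroblast markers were higher in SD. So were 2 of 3 B cell markers, 2 of 2 T cell markers and the 1 platelet marker tested, while 3 type 1 alveolar and 4 fibroblast markers were lower. Of those higher, all the ciliated, club, B cell and T cell markers, the platelet marker and 2 fibroblast markers stand out of alphabetical order. So does 1 type 1 alveolar marker, and another is in the 60 rows above Aaas. The T cell marker Cd3e (2.52 ± 1.32 CPM in SD, 0.733 ± 0.299 CPM in Ctrl) was scarce and overlapped between groups. The same holds for the platelet marker Itga2b (3.24 ± 1.94 CPM in SD, 0.876 ± 0.557 CPM in Ctrl). Of 7 T cell genes listed 5, and of 7 platelet genes 6, are not analysed here. The type 1 alveolar list shares Emp2 and Vegfa with lists given further on, so counts of lists are not independent. The part of these cell types in the levels of the 5 genes was not tested, and the measure of each gene within the endothelial markers is given further on.

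**Figure D2:**
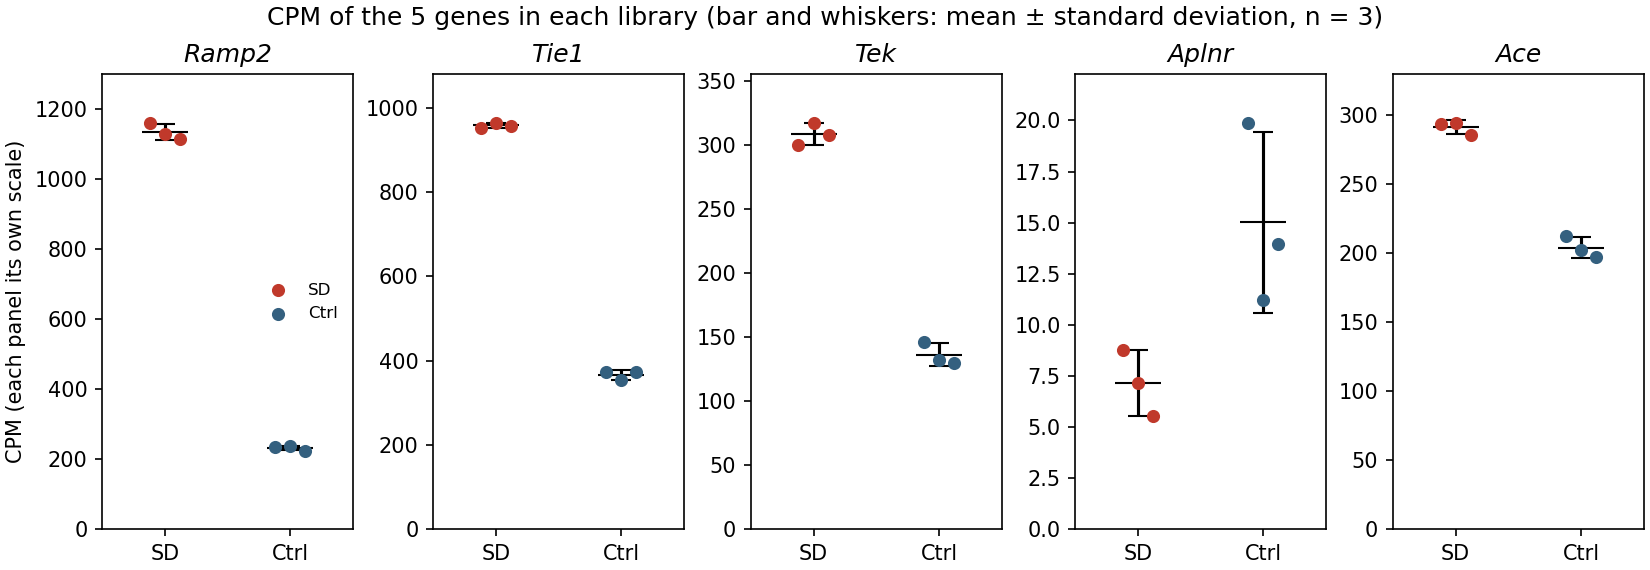
CPM (vertical axis, a scale of its own per gene) of the 5 genes in the 3 SD libraries (red) and the 3 Ctrl libraries (blue), with the mean and whiskers of the standard deviation, n = 3 in each group. The groups are apart in every panel, with SD above Ctrl for Ramp2, Tie1, Tek and Ace and below it for Aplnr.

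Ramp2 (ENSMUSG00000001240, chr11:101246028-101259546 in mm10, plus strand) had 1159, 1126 and 1114 CPM in SD libraries 1, 2 and 3, against 235, 236 and 224 CPM in Ctrl libraries 1, 2 and 3. Both groups were tight and far apart, with 878 CPM between the lowest SD and the highest Ctrl library. These values stand for 7548, 7850 and 7452 reads in SD and 1702, 1750 and 1576 reads in Ctrl. The means were 1133 ± 23.5 CPM in SD and 232 ± 6.35 CPM in Ctrl (n = 3 each), a log2 difference of 2.28 (SE 0.04, 95% interval 2.20 to 2.37, limma adjusted p = 4.9e-32). Ramp2 had the smallest p of all 10004 genes tested, and 19 genes had a higher log2 difference. Its annotated transcripts reach into Vps25, an ESCRT subunit gene on the same strand, with 1103 bases of exon in common, so the assignment of reads there is uncertain. Vps25 itself averaged 445 ± 22.3 CPM in SD and 336 ± 8.62 CPM in Ctrl, a log2 difference of 0.40 (limma adjusted p = 4.8e-09), smaller than that of Ramp2.

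Calcrl, which encodes the receptor that RAMP2 joins, had 50.5, 55.7 and 48.1 CPM in SD and 56.3, 60.8 and 49.9 CPM in Ctrl libraries, and the groups overlapped. Its log2 difference was -0.11 (95% interval -0.31 to 0.087, limma adjusted p = 0.35). The ratio of Ramp2 to Calcrl reads was 22.9, 20.2 and 23.1 in SD libraries and 4.17, 3.88 and 4.50 in Ctrl libraries, all SD above all Ctrl (exact permutation test, two-sided p = 0.1, the smallest that 3 against 3 allows). Of the 10 other genes listed for the adrenomedullin and CGRP system, 4 were in the table and tested; 2 were higher, 1 was lower and Calcrl did not pass. Among ligands, Calca, the gene of calcitonin and the peptide CGRP, was 5.49 ± 1.21 CPM in SD and 2.90 ± 0.174 CPM in Ctrl (1.89-fold higher, adjusted p = 0.017). Ackr3, a scavenging receptor for adrenomedullin and for chemokine CXCL12, was 45.6 ± 5.06 CPM in SD and 30.5 ± 4.58 CPM in Ctrl (1.50-fold higher, adjusted p = 8.5e-05). Mme, the peptidase neprilysin that degrades such peptides, had 13.4, 17.1 and 21.5 CPM in SD and 51.6, 57.0 and 57.0 CPM in Ctrl libraries (3.19-fold lower, adjusted p = 2.2e-13). Adm, Ramp1 and Ramp3 were among the 6 list genes not analysed here.

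Tie1 (ENSMUSG00000033191, chr4:118471191-118490061, minus strand) had 952, 964 and 957 CPM in SD libraries, against 372, 353 and 372 CPM in Ctrl libraries. Relative to their mean, the 3 SD libraries lay closer to each other than those of the other 4 genes, and all were above the Ctrl libraries. The means were 958 ± 5.76 CPM in SD and 366 ± 11.1 CPM in Ctrl (n = 3 each), a log2 difference of 1.39 (SE 0.04, 95% interval 1.30 to 1.47, limma adjusted p = 3.0e-26). The SD libraries varied by 0.601% of their mean, where counting error alone gives 1.25%.

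Tek (ENSMUSG00000006386, chr4:94739289-94874976, plus strand) had 300.4, 317 and 308 CPM as deposited in SD libraries, against 147, 133 and 129.8 CPM in Ctrl libraries. The groups did not overlap. The deposited means were 309 ± 8.48 CPM in SD and 136 ± 9.02 CPM in Ctrl (n = 3 each), a log2 difference of 1.17 (SE 0.06, 95% interval 1.06 to 1.29, limma adjusted p = 1.4e-19). In reads the Ctrl values were whole, 1062, 983 and 911, but the SD values came to 1956, 2211.6 and 2061.6, so 2 of 3 were not whole numbers. Of the factors with 1 decimal from 1.1 to 3.0, only 1.2 turned all 3 SD values into whole reads, 1630, 1843 and 1718. The same search found a factor for 42 of the 50 genes with SD values that were not whole. It also found one for 1676 of the 10131 genes listed from Aaas on (16.5%), whose values were whole reads already. With 1.2 alone this was so for 0.484% of those genes. With its SD values divided by 1.2, a step chosen after the values were seen, Tek was 250.3, 264 and 257 CPM in SD, still above all Ctrl libraries. The log2 difference was then 0.91 (limma adjusted p = 5.2e-16) and the fold 1.89. What made these values so was not tested, and the fold of Tek is 1.89 with that step and 2.26 without it.

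The ratio of Tie1 to Tek reads was 3.17, 3.04 and 3.11 in SD libraries and 2.54, 2.66 and 2.87 in Ctrl libraries with Tek as deposited (log2 difference 0.21, exact permutation test, two-sided p = 0.1). With the SD values of Tek divided by 1.2 it was 3.803, 3.64 and 3.73 in SD libraries, a log2 difference of 0.47. Of the 18 other genes listed for the angiopoietin and TIE pathway, 17 were tested; 3 were higher in SD, 7 were lower and 7 did not pass, with a median log2 difference of -0.18. Ptprb, the receptor phosphatase VE-PTP that keeps TEK dephosphorylated, had the highest fold of the 3, with 337, 324 and 314 CPM in SD and 129.7, 128 and 141 CPM in Ctrl libraries. All SD libraries were more than 2 times the highest Ctrl library (2.44-fold between means, adjusted p = 5.0e-21), and the gene stands out of alphabetical order in the table. Klf2, a flow-induced transcription factor, had 20.7, 24.3 and 22.9 CPM in SD and 11.6, 8.63 and 13.1 CPM in Ctrl libraries (2.04-fold higher, adjusted p = 6.0e-06). It too stands out of alphabetical order. Pik3r1, a regulatory subunit of PI3-kinase, was 1.38-fold higher.

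The ligands did not pass. Angpt1, the activating ligand of TEK, had 16.1, 19.2 and 16.1 CPM in SD and 18.8, 17.1 and 25.2 CPM in Ctrl libraries (adjusted p = 0.24). Angpt2, the ligand that can block TEK, had 2.61, 0.861 and 2.09 CPM in SD and 0.276, 0.809 and 1.14 CPM in Ctrl libraries (adjusted p = 0.075). Both overlapped between groups. The floor of detection was taken as 3 reads, which stand for 0.404 to 0.461 CPM. Angpt2 was thus near that floor, and below it in Ctrl library 1, at 0.276 CPM. Svep1, a ligand of TIE1, also overlapped and did not pass. Downstream, the adaptors Grb7 (2.83-fold), Shc1 (1.83-fold), Grb14 (1.28-fold) and Grb2 (1.13-fold), the phosphatase Ptpn11 (2.13-fold), the kinase Akt1 (1.25-fold) and the integrin subunit Itgb1 (1.16-fold) were lower in SD. Of these genes only Grb2 overlapped between groups, with 174.6 CPM in SD library 2 and 173.9 CPM in Ctrl library 1. All these genes are used by many cell types. Foxo1 and Nos3, the endothelial nitric oxide synthase, were 51.9 ± 2.32 and 24.1 ± 0.866 CPM in SD against 46.8 ± 3.91 and 21.1 ± 1.55 CPM in Ctrl and did not pass. The adaptor Dok2, at 1.32 ± 0.630 CPM in SD and 0.966 ± 0.622 CPM in Ctrl, and the integrin subunit Itga5, at 45.8 ± 2.60 CPM in SD and 47.7 ± 3.92 CPM in Ctrl, did not pass either.

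Aplnr (ENSMUSG00000044338, chr2:85136225-85139923, plus strand) went the other way. It had 8.75, 7.17 and 5.53 CPM in SD libraries, against 19.9, 11.2 and 14.0 CPM in Ctrl libraries, from 57, 50 and 37 reads in SD and 144, 83 and 98 reads in Ctrl. The groups did not overlap, but the gap was only 2.44 CPM, and Ctrl library 1 stood above the other two. The means were 7.15 ± 1.61 CPM in SD and 15.01 ± 4.44 CPM in Ctrl (n = 3 each), a log2 difference of -0.96 (SE 0.21, 95% interval -1.39 to -0.53, limma adjusted p = 0.00021). It was the scarcest and most variable of the 5, with a standard deviation of 22.5% of the mean in SD and 29.6% in Ctrl, where counting error alone gives 14.4% and 9.61%.

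Apln, the gene of the apelin peptide, rose while its receptor fell. It had 8.29, 6.17 and 8.67 CPM in SD libraries and 2.76, 3.10 and 0.997 CPM in Ctrl libraries, without overlap (3.37-fold higher, limma adjusted p = 2.2e-05). The ratio of receptor to ligand reads was 1.06, 1.16 and 0.638 in SD libraries and 7.20, 3.61 and 14.0 in Ctrl libraries (log2 difference -2.95, exact permutation test, two-sided p = 0.1). The ratio of 14.0 rests on Apln at 0.997 CPM in Ctrl library 3, near the floor of 3 reads, which stand for 0.427 CPM there. Apln stands out of alphabetical order in the table and Aplnr in order. Of the 10 other genes listed for the apelin pathway 8 were tested; Apln was higher, 3 were lower and 4 did not pass, with a median of -0.36. The lower ones were Prcp, a peptidase that trims apelin and angiotensin (2.58-fold), the inhibitory G protein subunit Gnai3 (1.45-fold) and the proprotein convertase Furin (1.39-fold). The arrestins Arrb1 and Arrb2 and the G protein subunits Gnai1 and Gnai2 did not pass.

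Ace (ENSMUSG00000020681, chr11:105967945-105989964, plus strand) had 293, 294 and 285 CPM in SD libraries, against 212, 202 and 197 CPM in Ctrl libraries. The groups did not overlap, with 72.9 CPM between the lowest SD and the highest Ctrl library. The means were 291 ± 4.90 CPM in SD and 204 ± 7.80 CPM in Ctrl (n = 3 each), a log2 difference of 0.51 (SE 0.05, 95% interval 0.40 to 0.62, limma adjusted p = 1.9e-10). Gm11651, annotated antisense to Ace with 295 bases of exon in common, is not analysed here, and no strand setting is stated, so reads of both cannot be told apart.

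Of 21 other genes of the renin-angiotensin and kinin system, 8 were tested; 1 was higher, 6 were lower and 1 did not pass, with a median of -0.39. Lnpep, an aminopeptidase that binds angiotensin IV, was 1.26-fold higher (adjusted p = 0.0055). The lower ones were peptidases that cleave angiotensins or kinins, Anpep (5.37-fold), Prcp, Prep (1.73-fold), Enpep (1.28-fold) and Nln (1.24-fold), with the prorenin receptor gene Atp6ap2 (1.35-fold). Thop1, thimet oligopeptidase, had 11.98, 14.6 and 12.6 CPM in SD and 11.6, 8.76 and 8.55 CPM in Ctrl libraries and did not pass (adjusted p = 0.066). Anpep was scarce, with 0.768, 1.58 and 0.747 CPM in SD and 4.97, 5.93 and 5.70 CPM in Ctrl libraries. Agt, Ren1 and Agtr1a were among the 13 list genes not analysed here.

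**Figure D3:**
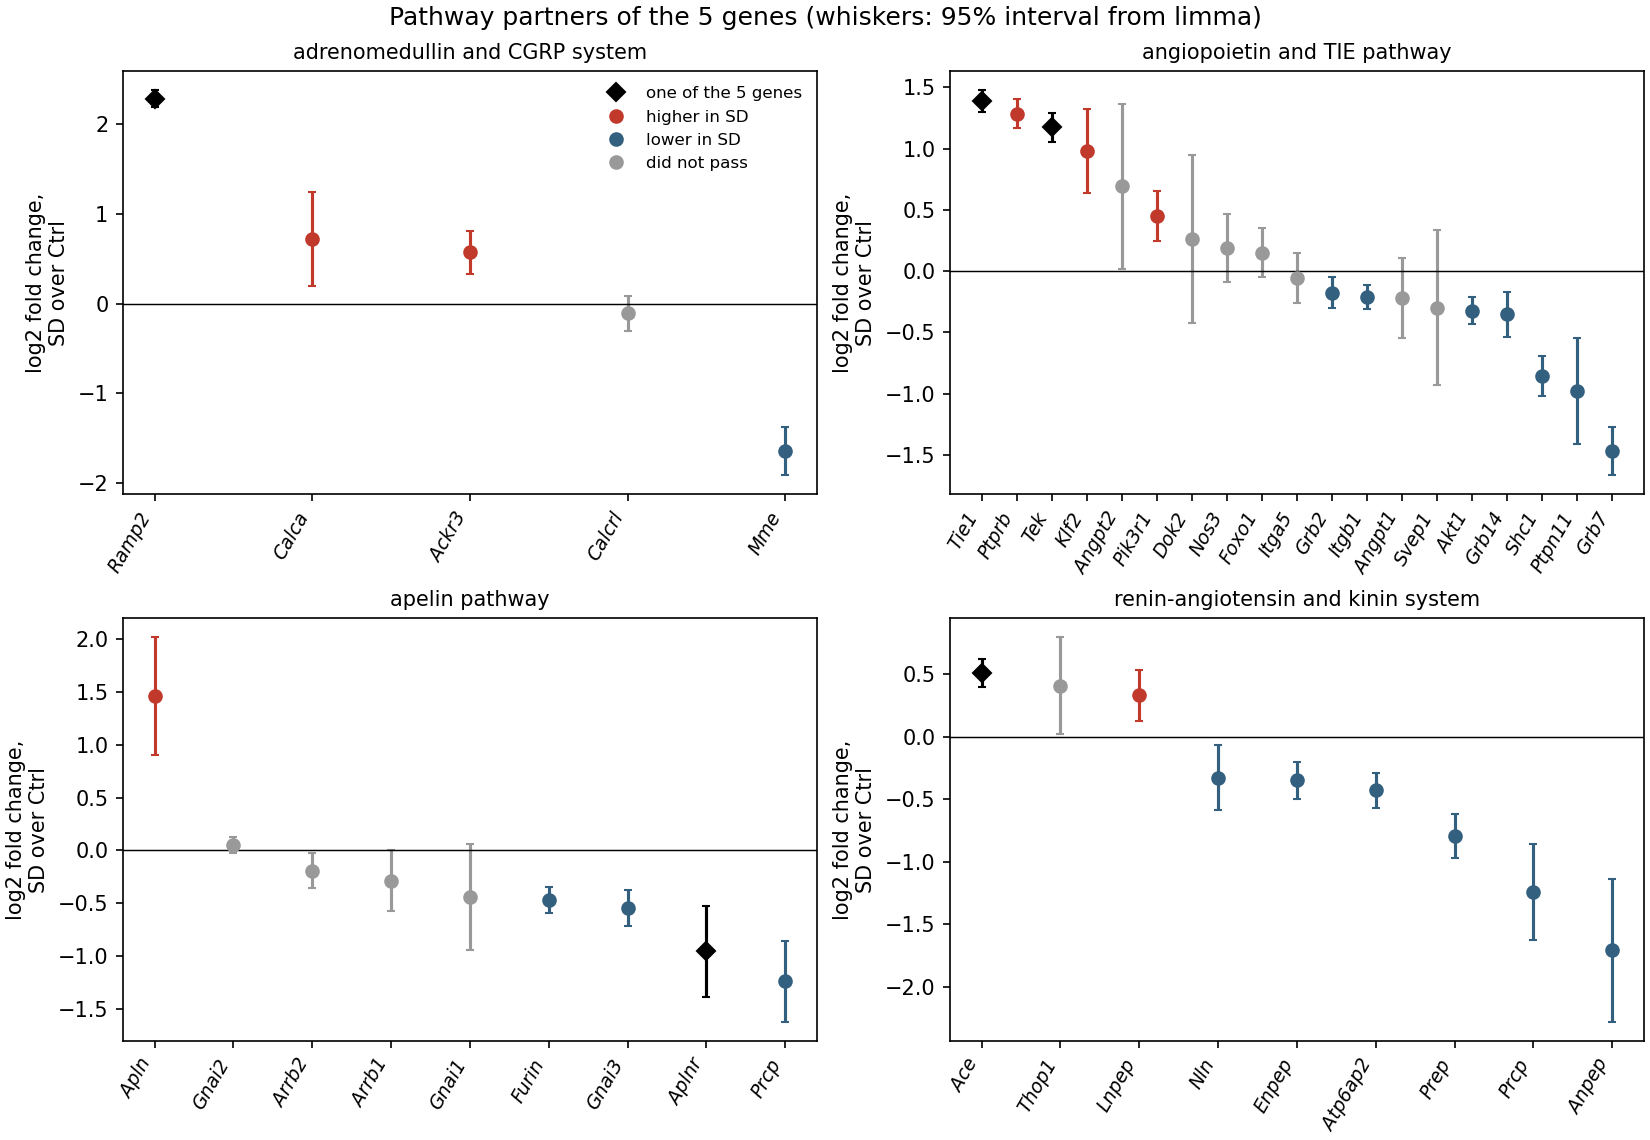
Log2 difference, SD over Ctrl, on the log2(CPM + 1) scale (vertical axis) of the 5 genes (black diamonds) and the tested genes of their 4 pathways, with 95% intervals from limma. Red points were higher in SD, blue points lower and grey points did not pass; Ramp2 at 2.28 stands far above Calcrl at -0.11, and Apln and Aplnr lie on opposite sides of 0.

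Corrected for the length of the annotated exons, the order of levels in SD was Ramp2 at 732 ± 15.2 CPM per kilobase, Tie1 at 210.4 ± 1.26, Tek at 65.6 ± 1.80, Ace at 55.0 ± 0.926 and Aplnr at 1.93 ± 0.436. In Ctrl it was Ramp2 at 149.8 ± 4.10 CPM per kilobase, Tie1 at 80.3 ± 2.43, Ace at 38.6 ± 1.47, Tek at 29.0 ± 1.92 and Aplnr at 4.06 ± 1.199 (n = 3 each). No neighbours in either order overlapped over libraries as deposited. With the SD values of Tek divided by 1.2, Tek at 53.2, 56.2 and 54.6 CPM per kilobase overlapped Ace at 55.5, 55.6 and 54.0 CPM per kilobase in SD, so their order there rests on the deposited values. The exon lengths used were those of protein-coding transcripts, while the stretch Ramp2 shares with Vps25 was counted over all transcripts. How much of that stretch lies within the length of Ramp2 was not tested.

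Genes that mark endothelial cells in general were also higher in SD. All 10 of the 18 listed that were in the table rose (Cdh5, Kdr, Flt1, Eng, Esam, Cldn5, Robo4, Erg, Sox17 and Sox18), beside 28.1% of all genes tested, with a median log2 difference of 0.87. Of these Kdr, Eng and Erg stand out of alphabetical order, and none is in the 60 rows above Aaas. Their summed level was 1516, 1591 and 1475 CPM in SD libraries and 640, 624 and 632 CPM in Ctrl libraries, 2.42-fold higher. Eng, a TGF-beta coreceptor, rose 4.37-fold and made up the largest share of the sum over all 6 libraries, though not in Ctrl alone. Kdr, the main VEGF receptor, rose 2.25-fold, the transcription factor Erg 2.59-fold, the junction protein Cldn5 1.72-fold, Cdh5 1.68-fold and the VEGF receptor Flt1 1.31-fold. Pecam1 and Emcn are not analysed here.

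Set against the summed markers of the same library, the 5 genes split. Ramp2 reached 76.5%, 70.8% and 75.5% of that sum in SD libraries and 36.7%, 37.8% and 35.5% in Ctrl libraries, a log2 difference of 1.02, with every SD library above every Ctrl library. Tie1 reached 62.8%, 60.6% and 64.9% in SD and 58.1%, 56.6% and 58.9% in Ctrl libraries, a log2 difference of 0.12. Tek reached 19.8%, 19.9% and 20.9% in SD and 22.9%, 21.2% and 20.5% in Ctrl libraries, with overlap and a log2 difference of -0.09. Its sign turned to 0.18 without Eng and to 0.17 against the mean log2 level of the markers, and with its SD values divided by 1.2 the difference was -0.36.

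Ace lay at 19.4%, 18.5% and 19.3% of the summed markers in SD and 33.2%, 32.4% and 31.2% in Ctrl libraries, a log2 difference of -0.76, although its CPM was higher in SD. Aplnr lay at 0.578%, 0.451% and 0.375% in SD and 3.11%, 1.79% and 2.21% in Ctrl libraries, a log2 difference of -2.33. SD and Ctrl libraries did not overlap for Ramp2, Tie1, Ace and Aplnr. The exact permutation test gave a two-sided p of 0.1 for these 4 and 0.2 for Tek, or 0.125 and 0.2 adjusted over the 5, and 0.1 is the smallest that 3 libraries against 3 allow. The difference of Tie1 was 0.38 without Eng, that of Ace -0.49, that of Ramp2 1.28 and that of Aplnr -2.06.

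**Figure D4:**
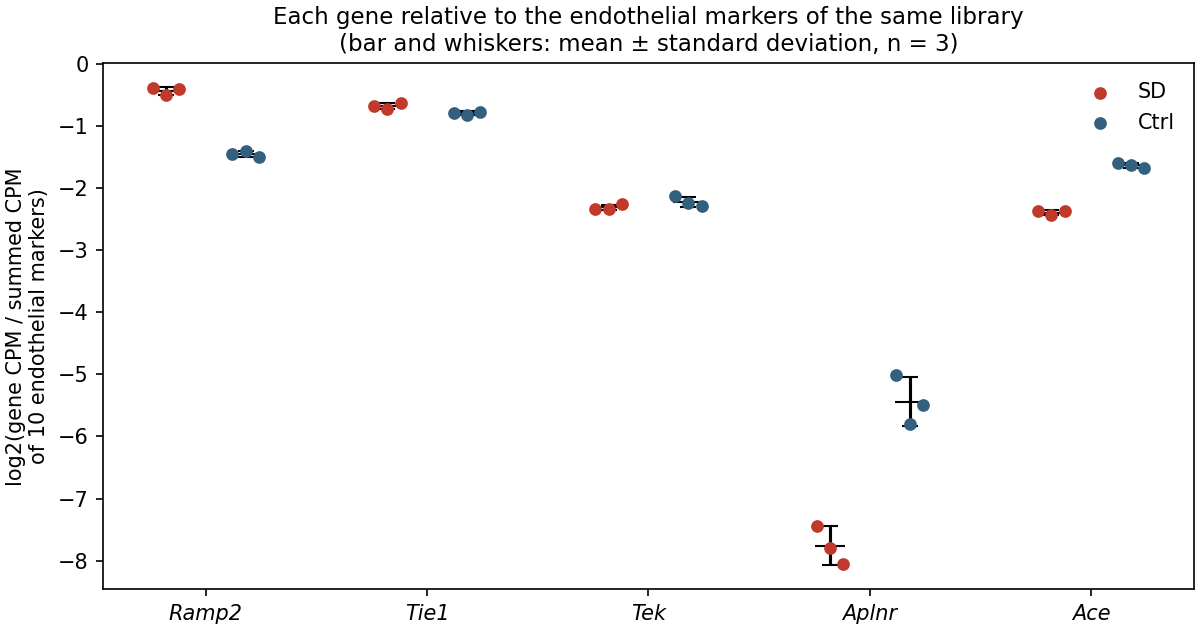
Log2 of the CPM of each gene over the summed CPM of 10 endothelial markers of the same library (vertical axis), for the 3 SD libraries (red, left of each pair) and the 3 Ctrl libraries (blue), with the mean and whiskers of the standard deviation, n = 3 in each group. Ramp2 lies higher in SD by 1.02, Ace and Aplnr lie lower by 0.76 and 2.33, and Tek overlaps.

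Marker lists of vessel types placed Apln and Aplnr in context. All 9 tested aerocyte markers were higher in SD (median 1.80), Apln among them. Those with the smallest p were the cytochrome gene Cyp4b1 (4.15-fold), the transcription factor Tbx2 (3.62-fold) and Fibin (4.83-fold). Cyp4b1 and Tbx2 are also made by other lung cells, and 6 of the 9 stand out of alphabetical order. Of 7 general capillary markers 4 were higher, 0 were lower and 3 did not pass (median 0.81), with Ptprb, the ligand gene Bmp6 (2.66-fold) and the receptor Kit (2.35-fold) among those that rose. Aplnr, itself known from general capillary cells, was kept out of both lists, and its log2 difference lay below the lowest log2 difference in both. Of 8 arterial markers 4 were higher and 1 lower (median 0.24), with Efnb2 4.0-fold higher and Fbln5 1.52-fold lower. Of 6 venous markers 4 were higher and 0 lower (median 0.83), with Vwf, the gene of von Willebrand factor, 2.64-fold and Nr2f2 1.96-fold higher. Of 4 lymphatic markers 2 were higher, Lyve1 and Reln, and of 18 endothelial transcription factors 13 were higher and 0 lower (median 0.83). Of those higher, 3 general capillary, 3 arterial and 1 venous marker and 7 transcription factors stand out of alphabetical order. Erg, Sox17 and Sox18 are counted among both the transcription factors and the endothelial markers above.

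Of 13 tested pericyte and smooth muscle markers 11 were higher in SD, 9 of these out of alphabetical order, 1 was lower and 1 did not pass, with a summed 1189 to 1211 CPM in SD and 463 to 477 CPM in Ctrl libraries and no member at 0. The contractile genes Tagln (2.75-fold) and Acta2 (2.93-fold) were higher. The pericyte gene Rgs5 was 1.14 ± 0.192 CPM in SD and 5.50 ± 1.15 CPM in Ctrl, 4.84-fold lower in SD, and the pericyte receptor Pdgfrb, at 14.2 ± 1.01 CPM in SD and 15.3 ± 2.87 CPM in Ctrl, did not pass. Of 12 genes listed for VEGF and Notch signalling 9 were higher and 1 lower, with Vegfa, the ligand of KDR, 2.45-fold higher. Of those higher, 3 stand out of alphabetical order, Vegfa among them, and 1 is in the 60 rows above Aaas. Kdr, Flt1, Flt4, Dll4 and Vegfa are also counted in lists given above, so this count is not independent of them.

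**Figure D5:**
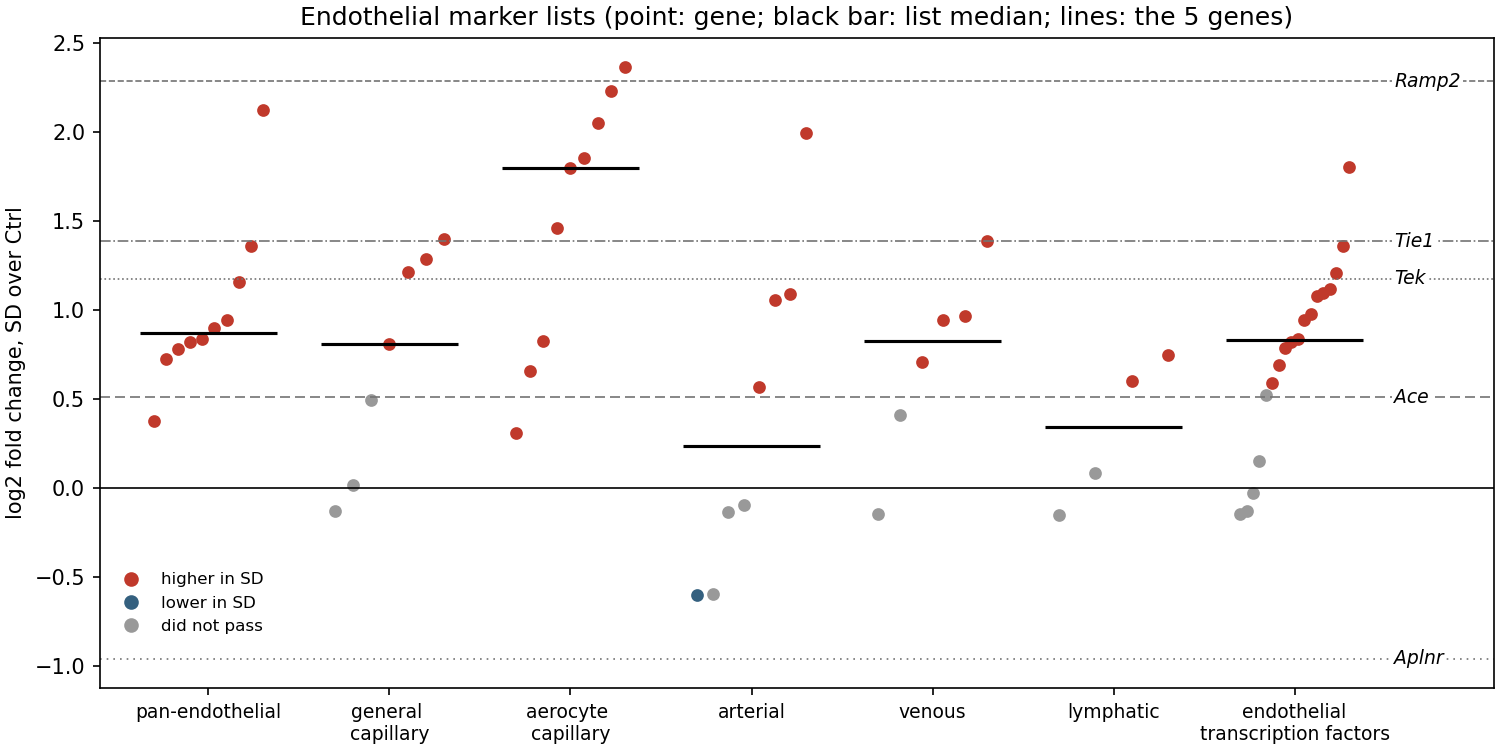
Log2 difference, SD over Ctrl (vertical axis), of each tested gene of 7 endothelial marker lists, with the list median as a black bar and the values of the 5 genes as horizontal lines. Red points were higher in SD, blue lower and grey did not pass; the Ramp2 line lies above all pan-endothelial points and the Aplnr line below every point of every list.

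Likeness of pattern was measured by the root mean square difference between log2(CPM + 1) values centred on the gene's own mean over 6 libraries. The genes most like each of the 5 were taken from all genes tested, leaving out gene models without a name (Gm and Rik). For Ramp2 they were Nr1d1, a repressor of the circadian clock, at 479 ± 16.99 CPM in SD and 99.4 ± 1.46 CPM in Ctrl (difference 0.0348), then Fibin (0.0440) and Sox2 (0.0853). For Tie1 they were Ndrg2 (0.0333), Enpp2 (0.0360), the enzyme autotaxin, and Eno3 (0.0428). All 6 stand out of alphabetical order in the table, like Ramp2 and Tie1. The measure runs over both groups and so follows the fold, and genes in order had ratios of at most 2.25. The place of these matches in the table was thus largely set by their fold. For Tek they were the splicing factor gene Sf1 (0.0398), Sod1 (0.0402), superoxide dismutase, and Gps2 (0.0440), all 3 in the 60 rows above Aaas. For Aplnr they were Sgsm2 (0.115), Snx15 (0.121) and Rasl11a (0.150), with larger differences. For Ace they were Rev3l (0.0198), Smurf2 (0.0238) and Ass1 (0.0256). All the matches of Aplnr and Ace are in alphabetical order, and nearly all genes elsewhere in the table had a ratio of 2 or more, so fold largely set this too.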

How the data were processed

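RNA-seq of 3 SD and 3 Ctrl lung tumour libraries was used. HISAT2 2.0.5, featureCounts 1.5.0-p3 and the build mm10 are named in the submitters' processing notes, without settings. The authors deposited CPM, 1 column per library, per the file headers; the genes kept and the strand setting are not given in the sources used here. Gene positions and exon lengths are from GENCODE vM21 on the same build. Whole reads were recovered for 61022 of 61146 values (99.8%, tolerance 0.01 read), and CPM of the remaining values was used as deposited.

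Genes that reached 1 CPM in 3 or more libraries entered the test with limma 3.58.1 (trend) in R 4.3.3 on log2(CPM + 1), with Benjamini-Hochberg adjustment over all 10004 genes and a threshold of 0.05; fold changes are of mean CPM, and a pseudocount of 1 makes the log2 differences of scarce genes smaller. Single ratios were compared with exact permutation tests (Python 3.11.15, scipy 1.17.1). edgeR 4.0.16 and DESeq2 1.42.0 on recovered reads (rounded to whole numbers), other filters, pseudocounts and scalings, a replicate block and leaving out each library were alternatives. The fit was tested on simulated data. Floors and counting errors cover counting error only, and p-values measure the spread between the samples deposited.

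The 5 genes, the lists and the tests were chosen with earlier results of these data known. Genes of the 4 pathway lists and the endothelial list were named with their values, those of other lists by the smallest p. Outside that rule, Fbln5 is named as the 1 lower arterial marker and Csf1r as the 1 higher macrophage marker. Rgs5 and Pdgfrb were chosen with their values in view. The 3 libraries of a group differed from each other beyond counting noise and were counted separately. The genotype's name and 1 gene of a pathway list are not reported here. Replicate numbers shared by SD and Ctrl did not pair the libraries (correlations of same-numbered deviations -0.00744, -0.0189 and 0.0124).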

Additional observations from a re-analysis of the deposited data

How the results depend on the processing

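All 85 alternative log2 differences of the 5 genes kept their direction and stayed past the threshold. Under other filters, the replicate block or leaving out the 60 rows above Aaas, the log2 difference could not change, only its error and adjusted p. All 34 alternative counts of genes or markers were within 1.5 times the reported count. Of 45 alternative ratios to the endothelial markers, for which no threshold applies, 43 kept their sign and 2 reversed: Tek relative to the endothelial markers was -0.09 (log2), against 0.172844 with the mean of log2 marker values and 0.17572 without Eng, the marker with the largest share of the sum over 6 libraries, though not in Ctrl alone. Without Eng, Ace was -0.49 and Tie1 0.38. The cause was not tested. The 45 include ratios without list genes in the 60 rows above Aaas. As 0 of the markers are there, those ratios could not change. Leaving out Kdr, Eng and Erg together was not tested. With the replicate number as a block, which did not pair the libraries, 5603 genes changed. In this balanced design a block cannot move the log2 differences. They stayed at 2.28, 1.39, 1.17, -0.96 and 0.51 for Ramp2, Tie1, Tek, Aplnr and Ace, each still past the threshold. Leaving out each library in turn gave 2.26 to 2.30 for Ramp2, 1.36 to 1.40 for Tie1, 1.14 to 1.23 for Tek, -1.14 to -0.75 for Aplnr and 0.49 to 0.54 for Ace, all past the threshold, and 5057 to 5342 genes changed. For Aplnr, the gene with the fewest reads, the largest adjusted p in limma was 0.0084, without Ctrl replicate 1. Relative to the markers the same step gave 0.99 to 1.05 for Ramp2, 0.092 to 0.142 for Tie1, -0.127 to -0.048 for Tek, -2.51 to -2.11 for Aplnr and -0.78 to -0.74 for Ace. edgeR called 5655 genes and DESeq2 5234, against 5667 with limma, and all 10 endothelial markers rose under every alternative run for them. Dividing the SD values of Tek by 1.2, chosen after seeing the data, gave 0.91. With 3 libraries per group an exact test cannot reach a p below 0.1, which limits the ratios.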
